A study of Oryza sativa and Arabidopsis thaliana with 24 samples.

Results

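Leaves taken from the stem of Arabidopsis thaliana were compared with rosette leaves for their tRNAs and for the fragments cut from tRNAs. The members were chosen by their tissue labels alone: 2 libraries labelled as leaf from stem (called stem leaf here) and 2 labelled as rosette leaf, 4 of the 10 Arabidopsis libraries and of the 24 libraries of the series, which also holds rice. All 4 came from untreated plants grown in soil at 23 °C with 16 h of light and 8 h of darkness a day, and no allele, age or plant number is labelled. RNA was pretreated with an rtStar tRF&tiRNA kit and made into small RNA libraries. Each tissue has 2 biological replicates by the submitters' account, and nothing labels them as separate plants. The limma p-values therefore measure the spread between replicate libraries, pooled over the 5 Arabidopsis tissues, and this spread may be technical.

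A tRNA carries an amino acid to the ribosome and reads the codon with its anticodon, which lies at the tip of the anticodon loop. Cuts in that loop split the molecule into a 5′-half and a 3′-half, while cuts in the D loop or before the anticodon leave shorter fragments from the 5′ end (tRF-5), and cuts in the T loop leave fragments that carry the 3′ end (tRF-3). In plants, RNase T2 enzymes cut tRNAs in their loops, and both nuclear and plastid tRNAs give rise to such fragments. Plant cells hold separate tRNA sets of the nucleus, the plastid and the mitochondrion. Class names are those of the deposited tables, and a family here means the tRNAs of a single origin, amino acid and anticodon, for example nuclear Glu-TTC.

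The stem leaf libraries held 62664 and 94247 reads of tRNA signal and 445684 and 698761 tRF reads, and the rosette leaf libraries 42520 and 64991, and 291804 and 465932. Replicate 1 held 0.626 to 0.638 times the tRF reads of replicate 2 in each of the 5 Arabidopsis tissues. The labels do not say what the replicate number marks. The tRF totals of the 2 stem leaf replicates differed by 2.99 times the variance that counting alone gives (chi-square per degree of freedom), and those of rosette leaf by 2.23 times. Values are reads scaled to library size (RPM), and ± is the SD of n = 2 libraries. The summed tRNA signal was 326760 and 338521 RPM in stem leaf against 160329 and 171745 RPM in rosette leaf, which is 2.00-fold, so levels of tRNA signal are also given as shares of it. Individually listed fragments (5826 sequences of 17 to 40 nt) made up 89.3% and 89.8% of the tRF signal in stem leaf and 79.7% and 80.1% in rosette leaf. The part of these gaps in the results below was not tested. The tables list tRNAs only, so leaf marker genes could not be checked. The plastid share of the tRNA signal was 71.4 ± 0.0167% in stem leaf and 71.3 ± 0.199% in rosette leaf, and of the tRF signal 31.5% and 31.2%. In these bulk samples, fewer cells of a type and less RNA per cell cannot be told apart.

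The sequences that carry the comparison are given as the deposited tables list them, as DNA letters from 5′ to 3′, with the bases of the anticodon in capitals. The first set follows the 5′ end of nuclear Glu-TTC tRNA at_tR77 through 4 end positions, because its 31-nt and 36-nt forms changed in opposite directions.
at_tR77 31 nt: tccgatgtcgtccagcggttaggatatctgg
at_tR77 33 nt: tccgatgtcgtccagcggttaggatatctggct
at_tR77 35 nt: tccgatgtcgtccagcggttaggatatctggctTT
at_tR77 36 nt: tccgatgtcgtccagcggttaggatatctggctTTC
The next set is the same series from nuclear Gly-TCC tRNA at_tR92, with the short form that stops in the D loop region.
at_tR92 18 nt: gcgtctgtagtccaacgg
at_tR92 31 nt: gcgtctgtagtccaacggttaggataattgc
at_tR92 35 nt: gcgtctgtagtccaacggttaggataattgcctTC
at_tR92 36 nt: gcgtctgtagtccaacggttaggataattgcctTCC
The plastid fragments shown are those of Gly-GCC tRNA at_tR90, Asp-GTC tRNA at_tR48 and Met-CAT tRNA at_tR141, whose abundant 5′-halves differed in level.
at_tR90 35 nt: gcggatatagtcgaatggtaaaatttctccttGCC
at_tR90 39 nt: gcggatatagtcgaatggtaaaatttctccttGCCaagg
at_tR48 36 nt: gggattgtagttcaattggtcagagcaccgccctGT
at_tR141 35 nt: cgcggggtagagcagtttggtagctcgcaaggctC
The last set holds the 2 most abundant short tRF-5 that were higher in stem leaf, from nuclear Ser-AGA and Ala-AGC tRNAs, and 2 tRF-3 that end in the CCA tail and were lower.
at_tR160 23 nt: gtggacgtgccggagtggttatc
at_tR1 20 nt: ggggatgtagctcagatggt
at_tR65 18 nt: ttctcggtagaacctcca
at_tR223 17 nt: cccgggcgaagccacca
The 23-nt fragment is shared by at_tR160, at_tR161, at_tR162, at_tR164, at_tR165 and at_tR169, and the 20-nt fragment by at_tR1 and at_tR3. In TAIR10, at_tR77 has 6 identical nuclear loci, the first at chr1:2939417-2939488 on the plus strand (AT1G09110), and at_tR92 has 12, the first at chr1:2588525-2588596 on the plus strand (AT1G08240). The plastid genes are single: at_tR48 at chrC:29801-29874 on the minus strand, at_tR90 at chrC:36490-36560 on the plus strand (trnG) and at_tR141 at chrC:36704-36777 on the minus strand, which the reference annotates as trnfM, the initiator tRNA of the plastid.

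The make-up of the fragments differed between the leaves, and it did so in opposite directions for nuclear and plastid tRNAs. Among nuclear fragments, 5′-halves made up 43.3% and 42.4% of the signal in the stem leaf libraries and 23.4% in both rosette leaf libraries. Among plastid fragments they made up 27.7% and 26.9% in stem leaf and 40.70% and 40.04% in rosette leaf. The groups did not overlap in either origin. In signal summed over families, stem leaf was thus the higher tissue for nuclear 5′-halves and the lower tissue for plastid ones. The tRF-5 class was the counterpart: 51.3 ± 0.510% of nuclear fragments in stem leaf against 67.4 ± 0.233% in rosette leaf, and 56.3 ± 0.862% of plastid fragments against 41.9 ± 0.622%. Over both origins together, the differences partly offset each other, with 38.0 ± 0.592% against 29.2 ± 0.180% for 5′-halves. With 2 libraries against 2, the exact permutation test (two-sided) cannot give a p below 0.333, and each of these differences reached that smallest value. These shares are formed within each library and origin, so they do not depend on how the libraries were scaled.

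**Figure D1:**
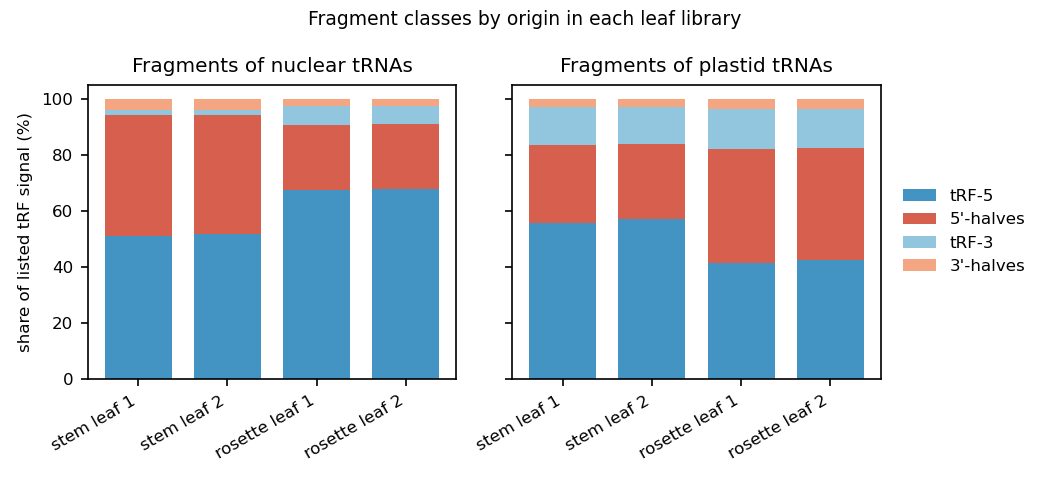
Share of each fragment class in the listed nuclear and plastid fragment signal, in percent, for each of the 2 stem leaf and 2 rosette leaf libraries. Nuclear 5′-halves sit at 42.4% to 43.3% in stem leaf against 23.4% in rosette leaf, and plastid 5′-halves at 26.9% to 27.7% against 40.04% to 40.70%.

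As levels, nuclear 5′-halves summed to 267463 and 263611 RPM in stem leaf and 121907 and 121889 RPM in rosette leaf, a ratio of 2.18. Nuclear 3′-halves, the matching 3′ pieces, were 1.85 times as high in stem leaf, with 25255.6 and 25412.1 RPM against 13752.4 and 13684.4 RPM. Nuclear tRF-3 went the other way, with 10271.9 and 10959.4 RPM against 34787 and 33695.9 RPM, and were 3.23 times as high in rosette leaf. Plastid 5′-halves were 1.48 times as high in rosette leaf, and plastid tRF-5 1.34 times as high in stem leaf. In all 4 libraries 5′ fragments outweighed 3′ fragments in both origins.

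Summed by family and class, 81 of 230 totals were higher in both stem leaf libraries than in both rosette leaf libraries (35.2%) and 116 were lower in both (50.4%). Against this background, nuclear 5′-halves were higher in 12 of 20 families and lower in 3, and nuclear 3′-halves were higher in 18 of 30 and lower in 4. Plastid tRF-5 were higher in 18 of 26 families and lower in 8, while plastid 5′-halves were split, higher in 8 of 19 and lower in 10. The lower plastid 5′-half sum rested on Asp-GTC and Gly-GCC. Their means were 26612 and 18756 RPM in stem leaf and 51824.5 and 40530 RPM in rosette leaf. Met-CAT, next in size, was higher in stem leaf (17661 against 6015 RPM). Nuclear tRF-3 were lower in 43 of 43 families.

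The position at which 5′ fragments ended showed where the classes parted. Positions are counted from the first anticodon base as 1, so that 0 is the base just before the anticodon, -2 is the last base of the anticodon stem, and 3 is the last anticodon base. Of the signal of nuclear 5′ fragments that match their tRNA exactly, fragments that end at -2 held 1.27% and 1.31% in stem leaf and 11.99% and 11.97% in rosette leaf. Fragments whose last base is that of the anticodon (position 3) held 19.3% and 18.7% in stem leaf and 5.88% and 5.62% in rosette leaf. Nuclear fragments therefore ended further 3′ in stem leaf: ends within the anticodon held 43.0% against 24.5%, and ends in the loop before it 21.1% against 28.7%. Ends before the loop, which include -2, held 32.9% against 45.6%, and ends after the anticodon 3.00% against 1.28%. Over all 5808 individual tRFs tested, limma called 5.89% higher and 7.68% lower in stem leaf. Of 27 nuclear fragments that end at -2, 0 rose and 15 fell, and of 32 that end at 3, 8 rose and 0 fell by limma. At an unadjusted p under 0.05, 0 of the former rose and 1 of the latter fell, and voom called 0 in either of these directions.

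Plastid fragments ended less far 3′ in stem leaf. Ends at position 7, past the anticodon, held 1.33% and 1.20% of the plastid 5′ signal in stem leaf and 12.10% and 11.89% in rosette leaf. Ends at position 2 held 7.82% and 7.57% against 21.97% and 21.16%, whereas ends at position 3 were higher in stem leaf (14.9% against 10.5%). Ends before the loop held 55.2% in stem leaf and 38.6% in rosette leaf. The 2 groups did not overlap at these positions.

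**Figure D2:**
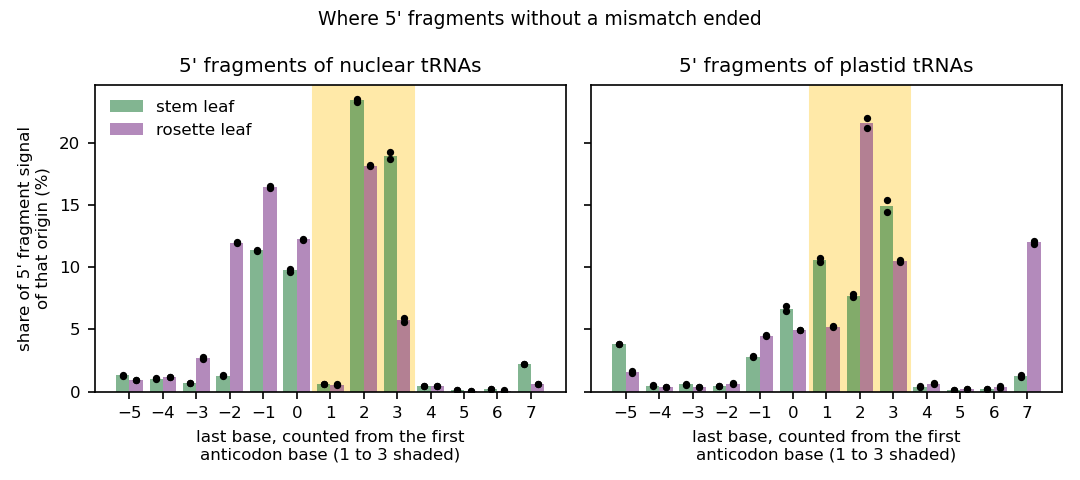
Share of exact 5′ fragment signal by end position relative to the anticodon (1 is its first base), in percent, for nuclear and plastid tRNAs, with bars for the mean of 2 libraries per leaf type and points for the single libraries, and the anticodon shaded. Nuclear ends at -2 are at 1.29% in stem leaf and 11.98% in rosette leaf and ends at 3 at 18.96% and 5.75%, and plastid ends at 7 are at 1.26% and 11.99%.

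End positions differed within many families, though the pooled plastid signal at positions 2 and 7 came mostly from a single family each. Averaged over the 4 leaf libraries, plastid Gly-GCC held 13609 RPM at position 7, and the next family, Arg-TCT, 596 RPM. Plastid Asp-GTC held 24701 RPM at position 2, and the next family, Gly-GCC, 2037 RPM. Over 236 shares of a position within a family (families with at least 100 RPM of exact 5′ signal over all positions, on average over the 4 leaf libraries), 70 were higher in stem leaf without overlap (29.7%) and 92 lower (39%). The nuclear end at -2 was lower in 12 of 13 families and higher in none, the nuclear end at 3 was higher in 10 of 16 and lower in 1, and the nuclear end at 7 was higher in 5 of 5. The plastid end at 2 was lower in 14 of 22 families and higher in 4, the plastid end at 7 was lower in 5 of 8 and higher in none, and the plastid end at 3 was split, 7 higher and 7 lower of 20. Kept to shares with at least 100 RPM at the position itself, a limit chosen after seeing the data, 36 of 94 were higher (38.3%) and 47 lower (50%). The nuclear end at -2 was then lower in 7 of 7 families, the nuclear end at 3 higher in 6 of 7 and the nuclear end at 7 higher in 3 of 3. The plastid end at 2 was lower in 8 of 9, the plastid end at 7 lower in 2 of 2, and the plastid end at 3 higher in 5 and lower in 5 of 11.

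Nuclear Glu-TTC, the largest source of fragments, held 28.3% of the tRF signal in stem leaf and 25.6% in rosette leaf. Its abundant tRNA at_tR77 gave almost the same total in both leaves, 183018 and 178983 RPM in stem leaf and 178462 and 177395 RPM in rosette leaf (log2 fold change 0.02, limma adjusted p = 0.0618). The same small difference passed the threshold with a replicate block in limma (0.02, adjusted p = 0.00467), with voom (0.02, adjusted p = 0.0075) and without stem leaf replicate 2 (0.04, adjusted p = 0.00668). With the libraries centred on their medians it was 0.73. Its fragments were distributed differently. The 36-nt 5′-half, which ends with the anticodon, had 49542 and 48452 RPM in stem leaf and 13704 and 13045 RPM in rosette leaf. It was 3.66-fold higher in stem leaf (log2 fold change 1.87 ± 0.0232 SE, limma adjusted p = 2.58e-12). The 31-nt fragment, which ends at position -2, had 1281 and 1474 RPM in stem leaf and 14849 and 14451 RPM in rosette leaf. It was 10.6-fold lower (log2 fold change -3.41 ± 0.0711 SE, limma adjusted p = 1.68e-10). The forms between them moved little: the 32-nt and 33-nt fragments had log2 fold changes of -0.32 and -0.18, and the 35-nt 5′-half 0.26. With the libraries centred on their medians instead, the 32-nt and 33-nt fragments came out at 0.19 and 0.33, while the 31-nt and 36-nt forms kept their direction. In both leaf types the 32-nt and 33-nt forms stayed among the 3 most abundant of the tRNA.

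Related Glu-TTC tRNAs, whose fragments differ from those of at_tR77 in a few bases near the 5′ end, showed the same opposition. The 31-nt fragment of at_tR76 had 2556 and 2420 RPM in stem leaf and 14208 and 14320 RPM in rosette leaf (log2 fold change -2.52), and its 36-nt 5′-half 13240 and 13201 RPM against 3619 and 3318 RPM (1.93). The 36-nt 5′-halves of at_tR78 and at_tR79 were higher by 2.06 and 2.47 on the log2 scale. Of the exact 5′ signal of the family, the end at -2 took 1.61% and 1.63% in stem leaf and 14.8% and 14.6% in rosette leaf, and the end at 3 took 27.8% and 27.5% against 8.90% and 8.48%. No library of one leaf type fell within the range of the other.

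Gly-TCC, which held 16.6% of the tRF signal in stem leaf and 19.1% in rosette leaf, had the same shift and also fewer short fragments in stem leaf. The 36-nt 5′-half of at_tR92 had 29339 and 28406 RPM in stem leaf and 4260 and 4327 RPM in rosette leaf, 6.73-fold higher (log2 fold change 2.75 ± 0.0211 SE, limma adjusted p = 6.1e-14). The 35-nt 5′-half was 1.86-fold higher, and the 40-nt 5′-half had 6801 and 6723 RPM against 1162 and 1412 RPM. These 5′-halves were thus higher in both stem leaf libraries. The 31-nt fragment was 7.45-fold lower, with 2022 and 2223 RPM against 15459 and 16168 RPM. The 18-nt fragment, the most abundant of the tRNA in rosette leaf, fell from 52686 and 52338 RPM there to 22583 and 23484 RPM, a 2.28-fold difference. The 17-nt form fell in step (log2 fold change -1.24). The mean length of the exact 5′ fragments of the family was 30.6 nt in stem leaf and 25.5 nt in rosette leaf. A short form went the other way: the 25-nt fragment had 6040 and 6134 RPM in stem leaf and 1234 and 1322 RPM in rosette leaf, next to a 26-nt fragment that was lower (log2 fold change -0.61, and -0.10 with median centring).

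**Figure D3:**
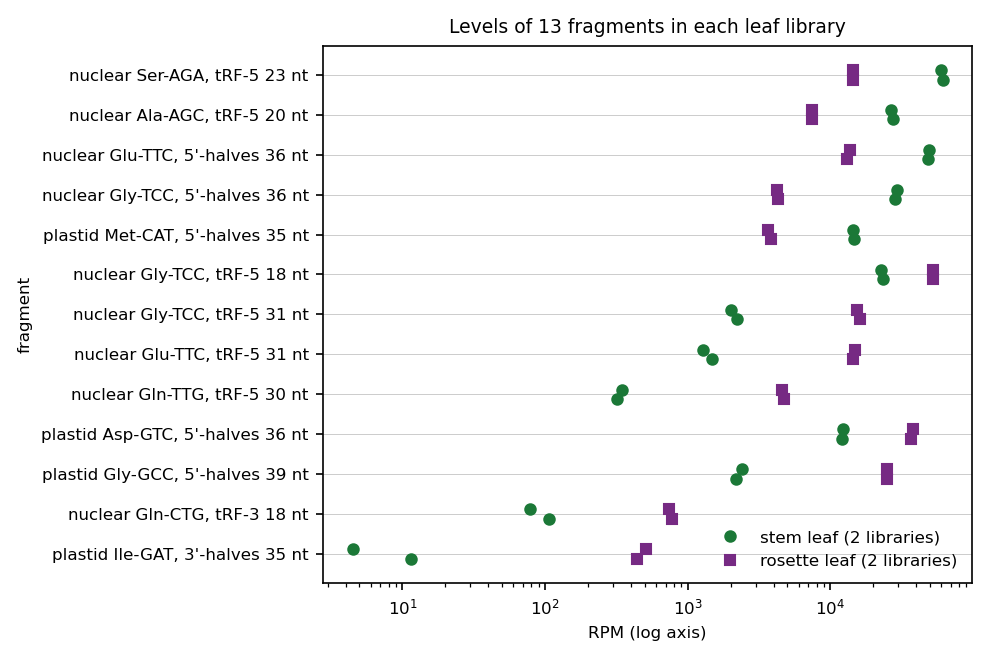
Level of 13 fragments in RPM on a log axis, with a point for each of the 2 stem leaf and 2 rosette leaf libraries. The 36-nt 5′-halves of nuclear Glu-TTC and Gly-TCC tRNAs lie higher in stem leaf and the 31-nt forms lower, and the 39-nt plastid Gly-GCC 5′-half lies at 2184 to 2399 RPM in stem leaf against 24845 to 25010 RPM in rosette leaf.

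The ratio of 5′-halves to tRF-5 within a family was tested with limma over 38 families with at least 10 RPM of each class. It was higher in stem leaf in 10 (26.3%) and lower in 13 (34.2%), with a median log2 difference of -0.07. Nuclear families held all 10 that rose: 10 of 19 rose and 3 fell, with a median of 1.30. Of 19 plastid families 0 rose by limma (1 at an unadjusted p under 0.05) and 10 fell, with a median of -1.0. A plastid fall of the ratio can come with more tRF-5 as well as with fewer 5′-halves, and the class totals above showed both. When any of the 4 libraries was left out, 7 to 9 families rose and 7 to 8 fell: 8 fell without stem leaf replicate 1, rosette leaf replicate 1 or rosette leaf replicate 2, and 7 without stem leaf replicate 2.

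Among the nuclear families that rose, Gln-CTG 5′-halves made up 85.7% and 85.9% of the 5′ signal in stem leaf and 49.1% and 49.8% in rosette leaf (log2 change of the ratio 2.62). Gly-TCC 5′-halves made up 58.9% and 57.6% against 23.1% and 23.0% (2.22), and Glu-TTC 5′-halves 54.2% and 53.9% against 27.1% in both (1.66). Cys-GCA, His-GTG and Tyr-GTA rose by 2.14, 1.81 and 1.30, and Asp-GTC and Gly-GCC by 1.06 and 0.34. The largest changes were in families where 5′-halves were scarce: Arg-CCT 5′-halves were 13.7% and 11.5% in stem leaf and 1.60% and 0.504% in rosette leaf (3.79), and Gln-TTG 5′-halves 2.56% and 2.17% against 0.244% and 0.203% (3.43). The level of Gln-TTG 5′-halves overlapped between the leaves, with 22.4 and 20.04 RPM in stem leaf and 20.6 and 17.2 RPM in rosette leaf, while its tRF-5 were at 854.9 and 901.6 RPM against 8399.5 and 8449.7 RPM, 9.59-fold lower. His-GTG 5′-halves overlapped as well, and its tRF-5 were 2.58-fold lower. The 3 that fell were Thr-CGT (-1.27), Ala-AGC (-1.0) and Glu-CTC (-0.53), where 5′-halves were 76.3% and 73.2% in stem leaf and 82.6% and 79.4% in rosette leaf. Glu-TTC and Glu-CTC, which carry the same amino acid, therefore differed in direction. By limma, the call of Gly-GCC was lost without any of the 4 libraries (adjusted p from 0.095 to 0.102), that of Cys-GCA without stem leaf replicate 1 (0.0701) or rosette leaf replicate 2 (0.0645), and that of Asp-GTC without stem leaf replicate 1 (0.0534). The calls of Thr-CGT without stem leaf replicate 1 (0.0979) or rosette leaf replicate 1 (0.0925) and of Glu-CTC without stem leaf replicate 2 (0.133) or rosette leaf replicate 1 (0.128) were lost as well, and all kept their direction. Of the 7 families often described as fragment sources in plants, 5 rose and 2 fell.

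Among plastid families, Gly-GCC 5′-halves made up 56.6% and 54.9% of the 5′ signal in stem leaf and 78.5% and 78.1% in rosette leaf (log2 change of the ratio -1.52). Gly-TCC 5′-halves made up 16.7% and 14.3% against 40.2% and 40.6% (-1.89), and Val-GAC 5′-halves 2.10% and 1.91% against 7.13% and 6.39% (-1.82). Leu-CAA, Arg-TCT, Pro-TGG and Gln-TTG fell by 1.71, 1.14, 1.0 and 0.92 on the log2 scale. Asp-GTC and Val-TAC fell less (-0.47 and -0.49). Plastid Glu-TTC 5′-halves were 71.7% and 75.7% of the 5′ signal in stem leaf, and its tRF-5 were at 0 in both rosette leaf libraries, at a low total. As levels, 5′-halves of Pro-TGG, Val-TAC and Glu-TTC were higher in both stem leaf libraries. Their means were 907, 5315 and 77.1 RPM in stem leaf and 768, 5056 and 37.7 RPM in rosette leaf. Their tRF-5 were higher as well, those of Pro-TGG 2.37-fold. 5′-halves of the other plastid families called down were lower in both stem leaf libraries. By limma, the calls of Gly-TCC and Val-TAC were lost without any of the 4 libraries (adjusted p from 0.0979 to 0.131 and from 0.101 to 0.108). Those of Arg-TCT and Glu-TTC were lost without any but rosette leaf replicate 1 (0.0883 to 0.121 and 0.0753 to 0.104) and that of Gln-TTG without any but stem leaf replicate 1 (0.101 to 0.159), while Gly-GCC, Asp-GTC, Val-GAC, Leu-CAA and Pro-TGG kept theirs in each of these leave-outs. Among fragments without a mismatch, the call of Pro-TGG was lost (-1.74, limma adjusted p = 0.311). Of 8 families tested in both origins, 5 had a higher nuclear ratio and a lower plastid ratio (Gly-TCC, Gly-GCC, Asp-GTC, Gln-TTG and Glu-TTC), and 0 the reverse. The calls of plastid Gly-TCC and of nuclear Gly-GCC were lost in each leave-out, so neither pair held there. That of plastid Glu-TTC was also lost with 4 added before the log (-1.93, limma adjusted p = 0.0895).

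**Figure D4:**
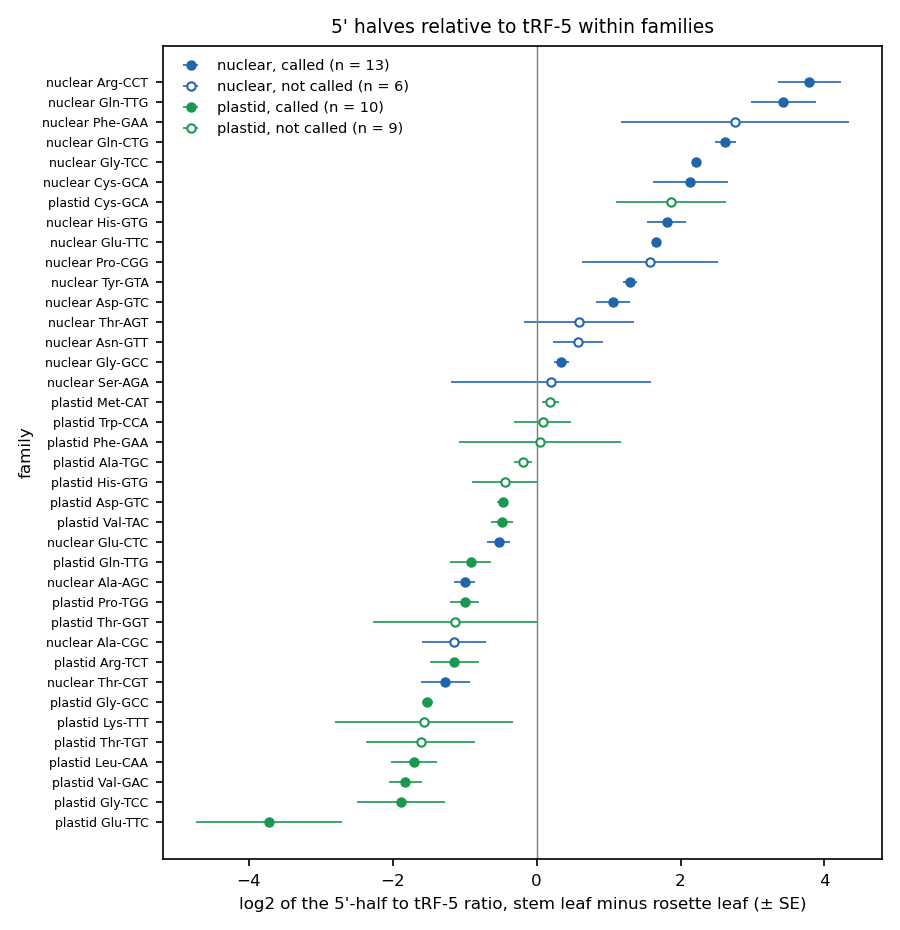
Log2 difference of the ratio of 5′-halves to tRF-5, stem leaf against rosette leaf, for 38 families (nuclear and plastid, 19 each), with limma standard errors as bars. Nuclear families lie mostly above 0 (median 1.30) and plastid families mostly below (median -1.0).

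Plastid Gly-GCC fragments showed the change of end position at the level of single sequences. The 39-nt 5′-half of at_tR90 had 2399 and 2184 RPM in stem leaf and 25010 and 24845 RPM in rosette leaf, 10.9-fold lower (log2 fold change -3.44 ± 0.115 SE, limma adjusted p = 1.13e-08). The 35-nt 5′-half, which ends with the anticodon, was 1.75-fold higher, with 15179 and 14245 RPM against 8108 and 8720 RPM. The longer and the shorter 5′-half thus differed in opposite directions, with no overlap in either. The 39-nt form held 50.3% and 49.3% of the family's exact 5′ signal in rosette leaf and 7.07% and 6.65% in stem leaf.

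The 36-nt 5′-half of plastid Asp-GTC had 12329 and 12123 RPM in stem leaf and 37875 and 36475 RPM in rosette leaf, 3.04-fold lower (log2 fold change -1.60 ± 0.075 SE, limma adjusted p = 1.79e-07). The 37-nt 5′-half, a single base longer, had 12527 and 12047 RPM against 10192 and 9898 RPM (0.29), a call that was lost without stem leaf replicate 1 (limma adjusted p = 0.0806) or rosette leaf replicate 2 (0.0693). Plastid Met-CAT fragments rose together: the 35-nt 5′-half of at_tR141 had 14340 and 14700 RPM against 3660 and 3829 RPM, a 3.88-fold difference. The 34-nt form, just before the anticodon, had 7025 and 6812 RPM against 1717 and 1837 RPM, so the ratio of 5′-halves to tRF-5 of this family was not called (0.19, limma adjusted p = 0.2067), though the leaf types did not overlap in it and it was called higher with only the 4 leaf libraries in the fit (0.19, limma adjusted p = 0.037).

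Other short tRF-5 were higher in stem leaf. The 23-nt Ser-AGA fragment, from a tRNA that carries serine, was the most abundant listed sequence there, with 59235 and 61133 RPM against 14421 and 14509 RPM in rosette leaf. It was 4.16-fold higher (log2 fold change 2.06 ± 0.024 SE, limma adjusted p = 2.15e-12), and made up 96.1% and 95.2% of the exact 5′ signal of its family in stem leaf and 73.9% and 72.2% in rosette leaf. The family held 6.71 ± 0.118% of the tRF signal in stem leaf and 2.40 ± 0.0384% in rosette leaf. The 20-nt Ala-AGC fragment was 3.67-fold higher, with 26703 and 27562 RPM against 7419 and 7379 RPM. In the stem the levels of both were higher still, with means of 119625 and 59080 RPM, and the share of nuclear 5′-halves was 32.8%, between the leaf types.

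Across all individual fragments, 342 of 5808 tested were higher in stem leaf (5.89%) and 446 lower (7.68%), with a median log2 fold change of -0.09. Leaving out stem leaf replicate 1 left 139 and 168 calls, stem leaf replicate 2 left 172 and 248, rosette leaf replicate 1 left 206 and 189, and rosette leaf replicate 2 left 263 and 212. With only the 4 leaf libraries in the fit, 108 were higher and 137 lower. With at least 10 RPM on average, 349 of 2187 were higher and 351 lower. The classes differed: nuclear 5′-halves had 63 higher and 8 lower of 785 (median 0.97), and nuclear 3′-halves 74 higher and 5 lower of 688 (median 0.80). Plastid 5′-halves had 10 higher and 24 lower of 234 (median -0.39), and plastid tRF-5 61 higher and 35 lower of 454 (median 0.30). Nuclear tRF-5 were balanced, with 78 higher and 75 lower of 1314 (median -0.10). With median centring, plastid 5′-halves had 15 higher and 12 lower. Fragments of the families often described in plants had 75 higher and 68 lower of 1224 (median 0.07), and plastid Glu-TTC fragments 6 higher and 4 lower of 49.

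Most of the tRF-3 called were lower in stem leaf. Of 1318 nuclear tRF-3, 20 were higher and 204 lower in stem leaf (median -1.57), and of 465 plastid tRF-3, 13 and 50 (median -1.27). The difference depended on length. Nuclear tRF-3 of 21 to 23 nt summed to 1891 and 1896 RPM in stem leaf and 10689 and 10049 RPM in rosette leaf, 5.47-fold, and 0 of 359 were higher and 78 lower by limma (2 higher at an unadjusted p under 0.05, and 0 by voom). Those of 17 nt summed to 1003 and 1086 RPM against 5099 and 5106 RPM, 4.88-fold. Those of 31 nt and longer did not differ in sum, with 2717 and 2992 RPM against 2909 and 2721 RPM, and the groups overlapped. Plastid tRF-3 of 21 to 23 nt were 6.38-fold lower, while those of 31 nt and longer were 1.32-fold higher in stem leaf. The class share of plastid tRF-3 was nearly the same in both leaves, 13.4% against 14.0%.

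The families with the most nuclear tRF-3 signal in rosette leaf showed the size of this difference. Tyr-GTA tRF-3 summed to 2268 and 2698 RPM in stem leaf and 4462 and 4024 RPM in rosette leaf, 1.71-fold. Gln-CTG was at 666 and 852 RPM against 3232 and 3069 RPM, 4.15-fold, and Ile-AAT 6.49-fold lower. Val-AAC was 10.2-fold lower and Asn-GTT 10.9-fold, the widest of the 43, and Ser-AGA the narrowest at 1.55-fold. Among single sequences, the 18-nt Gln-CTG fragment had 78.5 and 107 RPM in stem leaf and 744 and 773 RPM in rosette leaf (8.16-fold lower, limma adjusted p = 0.000101). The 17-nt Val-AAC fragment had 47.1 and 70.1 RPM against 463 and 436 RPM. The 22-nt Val-AAC fragment and the 21-nt Ala-AGC fragment had no read in either stem leaf library and 72.0 and 53.7, and 65.1 and 73.0 RPM, in rosette leaf. Against a floor of 3 reads in the shallower stem leaf library they were at least 9.33-fold and at least 10.3-fold lower, and the call of the Val-AAC fragment was lost without any of the 4 libraries (limma adjusted p from 0.0882 to 0.115). Some long plastid tRF-3 stood on the other side. Among them, the 36-nt Tyr-GTA fragment of at_tR219 had 11717 and 11213 RPM in stem leaf and 5343 and 5057 RPM in rosette leaf.

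Nuclear 3′-halves were higher in stem leaf, like nuclear 5′-halves. Gly-TCC 3′-halves summed to 6141 and 6470 RPM in stem leaf and 3753 and 3314 RPM in rosette leaf, and Glu-TTC 3′-halves to 4470 and 4673 RPM against 1659 and 1781 RPM. Tyr-GTA 3′-halves had 2264 and 2112 RPM against 624 and 513 RPM. In each of the 3 families both stem leaf libraries were higher. Over both origins the class held 3.77% in stem leaf and 3.14% in rosette leaf, and among fragments without a mismatch to the tRNA this difference turned to -0.35 percentage points. For nuclear 3′-halves alone, the difference in share kept its direction without mismatched fragments but was much smaller. That of nuclear 5′-halves did not shrink. Of 339 3′-halves without a mismatch, 20 rose and 16 fell. Plastid Ile-GAT was the exception in size. Its 3′-halves summed to 47.1 and 53.0 RPM in stem leaf and 1241 and 1144 RPM in rosette leaf, 23.8-fold lower, and the 35-nt form had 4.49 and 11.4 RPM against 507 and 440 RPM.

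Several nuclear fragments that end at position -2 or -3, at the end of the anticodon stem, were scarce in stem leaf. The 30-nt Gln-TTG fragment of at_tR68 had 348 and 321 RPM in stem leaf and 4578 and 4760 RPM in rosette leaf, 14.0-fold lower. The 31-nt His-GTG fragment of at_tR94 had 44.9 and 60.1 RPM against 617 and 584 RPM. The 31-nt Asp-GTC fragment of at_tR44 had 0 and 11.4 RPM against 223 and 185 RPM, and its 30-nt form 0 RPM in both against 99.4 and 55.8 RPM, at least 11.5-fold lower. All 4 were lower without overlap and were called by limma, the 30-nt Asp-GTC form no longer without stem leaf replicate 1 (adjusted p = 0.0528) or rosette leaf replicate 1 (0.0625), and the 31-nt Asp-GTC form no longer with only the 4 leaf libraries in the fit (0.0941). In the other direction, the 19-nt His-GTG fragment of the same tRNA had 114 and 120 RPM in stem leaf and 3.43 and 4.29 RPM in rosette leaf. With 3 reads in rosette leaf, the ratio was 30.4 with a 95% counting interval of 9.98 to 146. The 24-nt Val-AAC tRF-5 of at_tR223 had 186 and 238 RPM against 0 and 2.15 RPM, a ratio of 197 with an interval of 29.3 to 6538 from a single rosette leaf read. Intervals and floors cover counting error only.

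Summed per tRNA, 49 of 226 tRF totals were higher in stem leaf (21.7%) and 106 lower (46.9%), with a median log2 fold change of -0.45. With the libraries centred on their medians, the median moved to 0.26 and the split to 99 higher and 44 lower, so the direction of small changes rests on the scaling. Nuclear Ala (6 higher, 0 lower of 8), Cys (6 and 1 of 11) and Tyr (3 and 1 of 11) tRNAs had more calls upward under either scaling. Pro (0 and 10 of 11), Ile (0 and 4 of 4) and Trp (0 and 3 of 3) had more calls downward under either. Leu had 0 higher and 12 lower of 14 as scaled by the authors and 1 higher and 0 lower with median centring, and Arg 2 and 13 of 22 became 9 and 1. Plastid tRNAs were balanced (11 higher, 10 lower of 30) and became 24 and 1. Mitochondrial tRNAs had 1 higher and 4 lower of 19. The tRNAs often described in plants had 5 higher and 18 lower of 32, and 17 and 7 with median centring.

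Several tRNAs moved well beyond either median, while at_tR48, at_tR90 and at_tR92, also given here, stayed closer to the medians. Fragments of the plastid initiator tRNA at_tR141 totalled 37405 and 37249 RPM in stem leaf and 13478 and 14182 RPM in rosette leaf, 2.70-fold higher. The Cys-GCA tRNA at_tR53 had 749 and 538 RPM against 144 and 152 RPM, and the mitochondrial Asn-GTT tRNA at_tR42 1257 and 1116 RPM against 182 and 348 RPM (log2 fold change 2.23). These 3 were higher in both stem leaf libraries. Listed nuclear Cys-GCA fragments were split. Means of 5′-halves (117 against 34.5 RPM) and 3′-halves (59.2 against 35.2 RPM) were higher. Those of tRF-5 (170 against 220 RPM) and tRF-3 (137 against 399 RPM) were lower. Of fragments assigned to mitochondrial Asn-GTT alone, only 3′-halves averaged at least 10 RPM, at 38.1 and 54.4 against 0 and 8.58 RPM. How shared reads were counted is not given, so the source of the at_tR42 total is uncertain. Plastid Asp-GTC tRNA at_tR48 had 43933 and 44072 RPM against 78841 and 76412 RPM, 1.76-fold lower (log2 fold change -0.82, limma adjusted p = 2.40e-13), and with median centring -0.11 (0.125). The mitochondrial Met-CAT tRNA at_tR136 had 13.5 and 2.86 RPM against 216 and 258 RPM, 29.0-fold lower, and the Lys-TTT tRNA at_tR128 65.1 and 80.1 RPM against 528 and 648 RPM, 8.10-fold lower. The totals of at_tR92 (-0.20) and at_tR90 (-0.65) were lower as scaled by the authors and came out at 0.51 and 0.06 with median centring.

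The tRNA signal, which counts reads per tRNA, was higher in stem leaf for 70 of 200 tRNAs (35%) and lower for 7 (3.5%), with a median log2 fold change of 0.90 that goes with its 2.00-fold larger sum. As shares of the summed signal, 38 were higher (19%) and 23 lower (11.5%), with a median of 0.01. Plastid Ser-TGA tRNA at_tR188 had 58355 and 61058 RPM in stem leaf and 11512 and 11860 RPM in rosette leaf, and rose from 7.04% to 17.9% of the signal. Plastid Pro-TGG tRNA at_tR157 had 11957 and 12582 RPM against 1674 and 1591 RPM (log2 fold change 2.91, as a share 1.91). Plastid Asp-GTC tRNA at_tR48 was lower in both forms, with 13620 and 13987 RPM against 22843 and 24016 RPM, and held 4.15% in stem leaf against 14.1% in rosette leaf. Plastid Gly-GCC tRNA at_tR90 did not pass as a level (-0.10, limma adjusted p = 0.556), and as a share it was lower, 7.74% against 16.7%. As shares, 11 of the 30 plastid tRNAs passed upward and 7 downward, and of 19 mitochondrial tRNAs 3 and 3.

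Among nuclear tRNAs, 24 of 151 were higher as shares and 13 lower. The Leu tRNAs stood out in count: 11 of 14 were higher and 0 lower, with a median of 1.52 as shares. The Leu-CAA tRNA at_tR112 had 365 and 323 RPM in stem leaf and 60.3 and 42.3 RPM in rosette leaf. The Thr-TGT tRNA at_tR197 had 3118 and 3294 RPM against 366 and 513 RPM (log2 fold change 2.88, as a share 1.88), and the Arg-TCG tRNA at_tR25 276 and 424 RPM against 22.6 and 26.4 RPM (3.75 and 2.78). The Gln-CTG tRNA at_tR65, the most abundant of these, had 26020 and 25341 RPM against 7590 and 8562 RPM (1.67 and 0.67). All 4 were higher in both stem leaf libraries. Nuclear Glu tRNAs went the other way, with 0 higher and 5 lower of 8 as shares, among them at_tR72 (Glu-CTC, -1.69). The tRNAs often described in plants had 2 higher and 8 lower of 28 as shares (median -0.71).

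The tRF total relative to the tRNA signal of the same tRNA was tested within libraries for 157 tRNAs with at least 10 RPM in both tables. It was higher in stem leaf for 1 (0.637%) and lower for 74 (47.1%). The single higher tRNA was plastid Val-GAC tRNA at_tR228 (1.01), which is named because it was the only one, and no tRNA was called higher without stem leaf replicate 1, where at_tR228 was at 0.79 and 1 tRNA was higher at an unadjusted p under 0.05 by limma. With both tables taken as shares, 19 were higher (12.1%) and 41 lower (26.1%). Leu tRNAs had 0 higher and 12 lower of 14 in both forms, with medians of -2.97 and -1.98. The Arg-TCG tRNA at_tR25 fell by 4.23 and, in shares, by 3.26, and the Ile-TAT tRNA at_tR105 by 4.46 and 3.49. Over all tRNAs tested, 21.7% of tRF totals were higher and 46.9% lower, and 19% of tRNA signal shares were higher and 11.5% lower. Where the share was not called, 21 tRF totals were higher and 70 lower. Against this background, the joint counts are not read as an opposition of the 2 measures. Of 199 tRNAs tested in both tables, 18 were higher as a share of the tRNA signal and lower in their tRF total, 6 the reverse, 13 higher in both and 12 lower in both. Plastid Asp-GTC tRNA at_tR48 was among those lower in both, and the Gln-CTG tRNA at_tR65 was higher in tRNA signal while its fragments shifted from tRF-5 to 5′-halves.

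**Figure D5:**
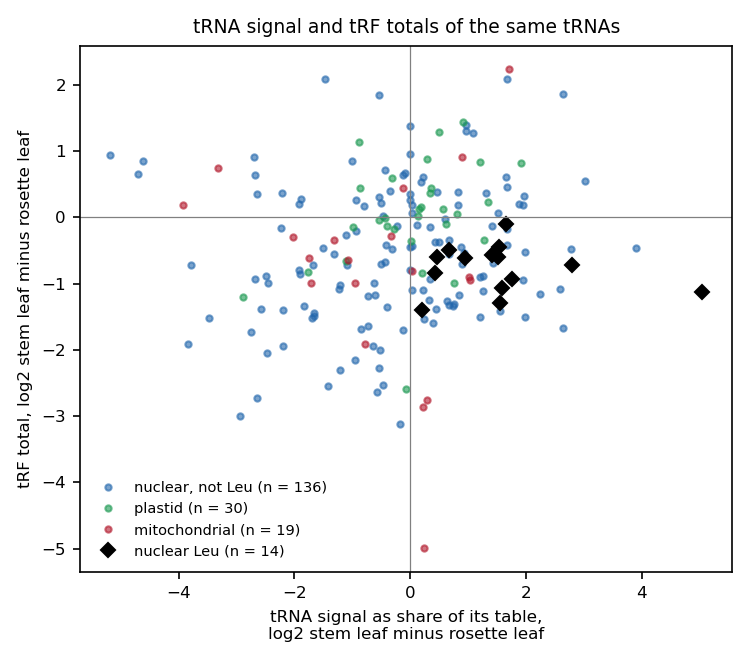
Log2 fold change of the tRF total against that of the tRNA signal as a share, stem leaf against rosette leaf, with a point for each of 199 tRNAs. The 14 nuclear Leu tRNAs lie to the right in tRNA signal (median 1.52) and below 0 in tRF total (median -0.67). The tRF totals are as scaled by the authors, with a median of -0.45 over all 226 tested. With median centring, no Leu tRNA was called lower in tRF total.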

How the data were processed

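tRNA-seq was compared in 2 stem leaf and 2 rosette leaf libraries. The deposited values are log2 of scaled reads (RPM): the file headers give log2 of 1 plus the value, while the 2 tables per tRNA (tRNA signal and tRF totals) fit whole reads with an offset of 0.5 and individual tRFs with 1, within 0.05 of a whole read for all values, so reads could be recovered. cutadapt and TAIR10 come from the submitters' processing notes; not given in the sources used here were the aligner, strand, the handling of shared reads and the total behind the tRNA signal. Values were turned back to RPM. limma 3.58.1 (trend, R 4.3.3) was fitted to log2(RPM + 1) over all 10 Arabidopsis libraries with a mean for each of 5 tissues, leaving out features that averaged under 1 RPM, and a feature was called where its two-sided p, adjusted by Benjamini-Hochberg over the whole table, was under 0.05. Low features have understated folds on this scale. Ratios were differences of log2 values within a library, with the same fit, for features with at least 10 RPM in both parts. Shares were compared by exact permutation of the 4 libraries. Fragments with at most 1 mismatch were assigned to tRNAs. Near-identical tRNAs, also some of different families, share fragments, so levels of single tRNAs are uncertain. The fit was run on simulated counts with independent libraries and less spread between replicates than individual tRFs had here. In individual tRFs the spread was 2.69 (rosette leaf) and 3.37 (stem leaf) times the counting variance. That run therefore does not show how the fit behaves on these data. Nuclear loci were compared with RefSeq TAIR10.1, and no mitochondrial coordinate is given. The members and lists (tRNAs by origin, amino acid and anticodon family, fragments by class and length, plastid Glu-TTC, and the families often described in plants) were chosen with earlier results of these data known. Named features are, among called ones of at least 10 RPM without overlap, the 6 largest folds each way, the 5 most abundant of each table and the most abundant of each list; other forms of the named tRNAs, families named for their ratio, tRF-3 or 3′-half totals, and at_tR53, at_tR65 and at_tR72 were chosen after their values were seen. Alternatives covered the offset added before the log, the filter, the libraries in the fit, the scaling, the test and each library left out.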

Additional observations from a re-analysis of the deposited data

How the results depend on the processing

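The number of individual tRFs called depended on the processing. Against 342 higher and 446 lower, 108 and 137 were called with only the 4 leaf libraries in the fit, 227 were lower with median centring, 702 were lower with voom on recovered reads, and 198 were higher among fragments without a mismatch. tRNA signal gave 26 higher and 27 lower with median centring and 38 and 23 with total scaling, tRF totals gave 99 and 44 with median centring, and the tRF total relative to tRNA signal gave 3 higher without a filter and, in an alternative chosen after seeing the data, 19 higher and 41 lower with both tables scaled to their totals. Median centring reversed at_tR92 (0.51) and at_tR90 (0.058) among tRF totals and the 32-nt (0.19) and 33-nt (0.33) fragments of at_tR77. Leaving out each library gave 139 to 263 higher and 168 to 248 lower individual tRFs, 63 to 70 and 6 to 7 tRNAs, 43 to 53 and 96 to 99 tRF totals, 0 to 1 and 64 to 69 relative tRF totals, and 7 to 9 and 7 to 8 ratios of 5′-halves to tRF-5. Over these leave-outs, the nuclear share of tRNA signal differed by -0.0174 to 0.31 percentage points, the plastid share by -0.0101 to 0.27, the mitochondrial share of tRFs by -0.0155 to 0.0201 and the share of 24 to 27 nt by -0.11 to 0.0166. Without mismatched fragments, the difference in share (stem leaf minus rosette leaf, percentage points) was -0.35 for 3′-halves, -2.63 for tRF-3 and -6.34 for tRF-5; by length it was -1.58 (18 to 20 nt), 4.53 (21 to 23 nt), -0.36 (24 to 27 nt) and -1.95 (28 nt and longer), and among nuclear fragments 0.19 for 3′-halves, 20.6 for 5′-halves, -2.71 for tRF-3 and -18.1 for tRF-5. With at least 10 RPM it was -3.08 for tRF-3, 3.90 at 21 to 23 nt, 0.0334 at 24 to 27 nt, 1.43 for nuclear 3′-halves, -3.83 for nuclear tRF-3, -16.9 for nuclear tRF-5 and 0.10 for plastid tRF-3. The cause of these moves was not tested. With a minimum of 100 RPM at each position, also chosen after seeing the data, 36 end position shares were higher and 47 lower, against 70 and 92, in part because fewer were compared (94 of 236). The labels do not say whether replicate numbers pair the samples. The correlation of same-numbered deviations was 0.144 to 0.319 over the 10 pairs of tissues for individual tRFs, all over 0.1, and -0.062 to 0.296 for tRF totals and -0.134 to 0.255 for tRNA signal (0.194, -0.019 and 0.11 between the leaf types). With a replicate block, 69 and 7 tRNAs, 50 and 105 tRF totals, 346 and 465 individual tRFs, 1 and 74 relative tRF totals and 10 and 13 ratios of 5′-halves were called. Features near a few RPM rest on 1 to 3 reads in the shallower libraries, which limits their folds.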
